A study of Drosophila melanogaster with 4 samples.

Results

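The pericentromeric blocks of Drosophila melanogaster chromosome arms 2L, 3L, 3R and X are the stretches of each arm that lie next to the centromere. They were set by position alone, as 2L:22000000-23513703, 3L:22900000-28108881, 3R:1-4200000 and X:22500000-23538515 in the BDGP6 build. A peak of open chromatin was a member when its summit lay in a block, and peaks of different libraries with 1 bp or more in common made up a merged region. This gave 4462 merged block regions, of 45596 in the whole series and 44429 on the main arms, which are these with 2R and 4. The remaining parts of 2L, 3L, 3R and X held 30302 regions and are called the rest of the arms.

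Chromatin was assayed by ATAC-seq, which inserts sequencing adapters into exposed DNA with a transposase. The mutant animals, of the line numbered 12, were w[1118];Pgk[Delta.E2F];+. In them a binding site for the cell cycle transcription factor E2F ahead of the glycolytic gene Pgk is altered. The control animals were w[1118]. All were pharate, that is fully formed inside the pupal case, at 96 h after pupa formation at 25 °C, and each sample pooled the flight muscle preparations of at least 40 animals. There were 2 libraries per genotype and 1 mutant line, so an effect of the allele and an effect of that line cannot be told apart. The labels do not say that the libraries of a genotype came from separate crosses or days, and p-values measure only the spread between these libraries.

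Heterochromatin is the compact, repeat-rich part of the genome, marked by methylated histone H3 lysine 9 and bound by the protein HP1. In flies it surrounds the centromeres, replicates late, and holds transposon remnants, satellite arrays and the ribosomal DNA of the X. It also holds a small set of active genes, many of them spread over very long introns, and some of these, such as light and rolled, depend on a heterochromatic surrounding for their normal expression.

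The lists held 26186 and 26880 peaks in mutants 1 and 2, against 30300 and 30787 in controls 1 and 2. The lists give no read totals. The genome-wide read level per position that the peak caller used as its floor could be solved from the listed values, and was 4.62 and 5.26 in the mutants, against 7.44 and 7.61 in the controls. The floor was lower in both mutants, so depth and genotype cannot be told apart. The tissue label was checked at marker genes: 9 and 10 of 10 flight muscle genes had a peak within 500 bp of a gene end in the mutants, against 10 and 10 in the controls. Of 12 markers of other cell types, 6 and 4 had one in the mutants, against 5 and 7 in the controls. The neuronal gene elav, the glial gene repo and the fat body genes Lsp2 and apolpp had one in all 4 libraries. The haemocyte markers Hml and NimC1, the neuronal gene brp and the tracheal gene btl had none in any library. The fat body gene Fbp1 was called in mutant 1 and control 2, and the neuronal gene nSyb in control 2 alone. The tracheal gene trh was called in mutant 1 alone and the tendon gene sr in both controls alone, and the part of cell makeup in the results below was not tested. In bulk tissue, fewer cells with an open site and less opening per cell cannot be told apart. Pgk lies outside the blocks, so nothing below checks the mutated site.

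The number of block peaks did not separate the genotypes. The mutants had 2660 and 3420 block peaks, against 3367 and 3039 in the controls. Mutant 1 was the lowest library and mutant 2 the highest, so the controls lay between the mutants. The means were 3040 ± 537 in mutants and 3203 ± 232 in controls (SD, n = 2 each), a difference of -163 peaks (two-sided exact permutation test, p = 1). With 2 libraries against 2, this exact permutation test cannot go below p = 0.333. In the rest of the arms the lists were shorter in both mutants, with 17272 and 16882 peaks in mutants and 19661 and 20407 in controls (difference -2957, exact permutation p = 0.333). The share of the peaks of the 4 arms that lay in the blocks was 13.3% and 16.8% in the mutants, against 14.6% and 13.0% in the controls. Here too the groups overlapped, and the mean difference was 1.30 percentage points (exact permutation p = 0.667). The direction of both differences depended on the libraries used: without mutant 1 the mutant count was 217 higher than the control mean, and without mutant 2 the share differed by -0.446 points.

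By arm, the 2L block had 339 and 441 peaks in mutants, against 464 and 456 in controls. These groups did not overlap (difference -70 peaks, exact permutation p = 0.333), and 2L was the only one of the 4 blocks in which they did not. The 3L block, the longest at 5.21 Mb, had 1048 and 1381 peaks in mutants and 1355 and 1215 in controls (p = 1 by the same exact permutation test). The 3R block of 4.2 Mb had 928 and 1200 peaks in mutants and 1155 and 1046 in controls (exact permutation p = 1). The X block of 1.04 Mb had 345 and 398 peaks in mutants and 393 and 322 in controls (exact permutation p = 0.667). In 3L and 3R, mutant 1 had the fewest peaks and mutant 2 the most. On X the fewest were in control 2.

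Block peaks were dense but stood away from genes. Per Mb there were 222 and 286 block peaks in the mutants, against 281 and 254 in the controls. In the rest of the arms the densities were 181 and 177 per Mb in the mutants, against 206 and 214 in the controls. The blocks were denser in 4 of 4 libraries, at 261 ± 29.3 peaks per Mb in the blocks and 195 ± 18.3 in the rest (SD, n = 4). The exact sign-flip permutation test over the 4 libraries gave p = 0.125, the smallest p it allows. The blocks hold 223 genes, 123 of them protein-coding, which is 18.6 genes per Mb in the blocks and 144 in the rest. Of block peaks, 2.93% and 3.16% had a gene end within 500 bp in the mutants, against 3.62% and 3.82% in the controls. In the rest of the arms this share was 35.8% and 42.2% in the mutants, against 42.5% and 39.2% in the controls. Block peaks were near gene ends less often in 4 of 4 libraries (exact sign-flip permutation p = 0.125), and the difference between the genotypes was small beside that between blocks and rest.

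**Figure D1:**
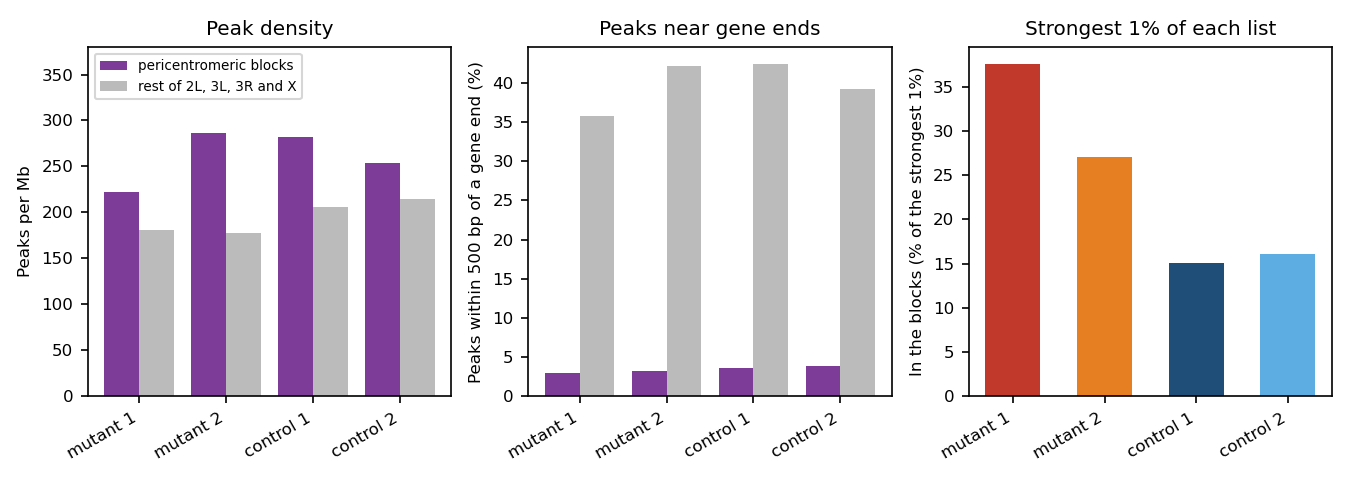
Peaks per Mb (left), the percent of peaks within 500 bp of a gene end (middle), both for blocks and rest of the arms, and the percent of the strongest 1% of main-arm peaks that lies in the blocks (right), 1 bar per library. The blocks are denser in every library (222 to 286 against 177 to 214 per Mb), few of their peaks are near gene ends, and the right-hand bars of both mutants stand above those of both controls.

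Genes cover 47.4% of the bases of the blocks, and 72.7% of the rest. Within the blocks, peaks were sparser in genes than between them. There were 153 and 209 peaks per Mb of gene in mutants, against 203 and 186 in controls. Between genes there were 285 and 355 peaks per Mb in mutants, against 352 and 316 in controls. Of the 4462 block regions, 52.4% lay over 10 kb from any gene, while 2.64% of the regions in the rest did.

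The reads around block peaks were also more plentiful. A block peak had a local read level over 2 times the floor of its library in 24.5% and 25.2% of cases in the mutants, against 21.8% and 20.2% in the controls. In the rest of the arms the share was 5.09% and 9.23% in the mutants, against 11.8% and 8.36% in the controls. The share was higher in the blocks in 4 of 4 libraries (exact sign-flip permutation p = 0.125). Repeated sequence attracts reads from several copies, and the treatment of reads that map to more than 1 place is not given in the sources used here. Its part in these levels was not tested.

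Peak width did not differ beyond the spread between libraries. The median block peak was 124 and 110 bp wide in mutants, against 120 and 138 bp in controls (exact permutation p = 0.667). Strength was compared by rank, the position of a peak in its own main-arm list sorted by -log10 p and given in percent, where 0 is the strongest. The median block peak ranked at 39.3% and 51.0% in mutants, against 56.3% and 49.1% in controls. The groups overlapped, and the mean difference was -7.57 points (exact permutation p = 0.667). Other measures did not overlap. Block peaks covered 498 and 583 kb in mutants, against 619 and 628 kb in controls (exact permutation p = 0.333). Their median fold enrichment was 3.91 and 3.83 in mutants, against 3.55 and 3.60 in controls (exact permutation p = 0.333). Depth moves both measures, so depth and genotype cannot be told apart in them. In the rest of the arms peaks covered 2605 and 2584 kb in mutants, against 3381 and 3627 kb in controls, again without overlap. The median fold enrichment there did overlap, at 3.91 and 4.39 in mutants, against 4.26 and 3.75 in controls.

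At the top of the lists the blocks took a larger share in the mutants. Of the strongest 1% of main-arm peaks, 96 of 255 and 70 of 259 lay in the blocks in mutants, against 44 of 293 and 48 of 299 in controls. These are 37.6% and 27.0% in mutants, against 15.0% and 16.1% in controls. The means were 32.3 ± 7.51% in mutants and 15.5 ± 0.733% in controls (SD, n = 2 each), a difference of 16.8 points without overlap (exact permutation p = 0.333, the smallest p the design allows). This measure was chosen after values were seen. Most of these peaks were on 2 arms: the X block held 52 and 41 of them in mutants, against 27 and 30 in controls, and the 3R block held 39 and 23 in mutants, against 15 and 15 in controls. The number of very strong block peaks was not higher in mutants. Peaks with -log10 p over 250 numbered 39 and 37 in the blocks in mutants, against 47 and 44 in controls, while over the whole main arms they numbered 50 and 70 in mutants, against 381 and 259 in controls. Elsewhere on the main arms the mutants thus had fewer peaks over this cut. Depth moves -log10 p and the read floor was lower in both mutants, so depth and genotype cannot be told apart in these counts. Ranked by fold enrichment, which is the ratio of reads at the peak to the local read level, the blocks held 7.06% and 5.02% of the strongest 1% in mutants, against 3.41% and 3.34% in controls. Of all main-arm peaks the blocks held 10.4% and 13.2% in mutants, against 11.5% and 10.2% in controls. In every library their share of the strongest 1% was above this by -log10 p and below it by fold enrichment.

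Peaks were unevenly spread along the blocks. In the X block, the first 250 kb from the border held 76 and 108 peaks per Mb in mutants, against 96 and 84 in controls. The last bin, at the end of the X assembly, held 759 and 832 per Mb in mutants, against 811 and 724 in controls. In the 3R block the last bin, at the start of the 3R assembly, held 695 and 725 peaks per Mb in mutants, against 685 and 655 in controls. The median 3R bin held 180 and 260 in mutants, against 252 and 224 in controls. The 3L block was flatter, with medians of 204 and 268 peaks per Mb in mutants, against 272 and 244 in controls. In the 2L block the second bin from the border was the densest of the block in every library, at 388 and 504 per Mb in mutants, against 616 and 548 in controls.

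**Figure D2:**
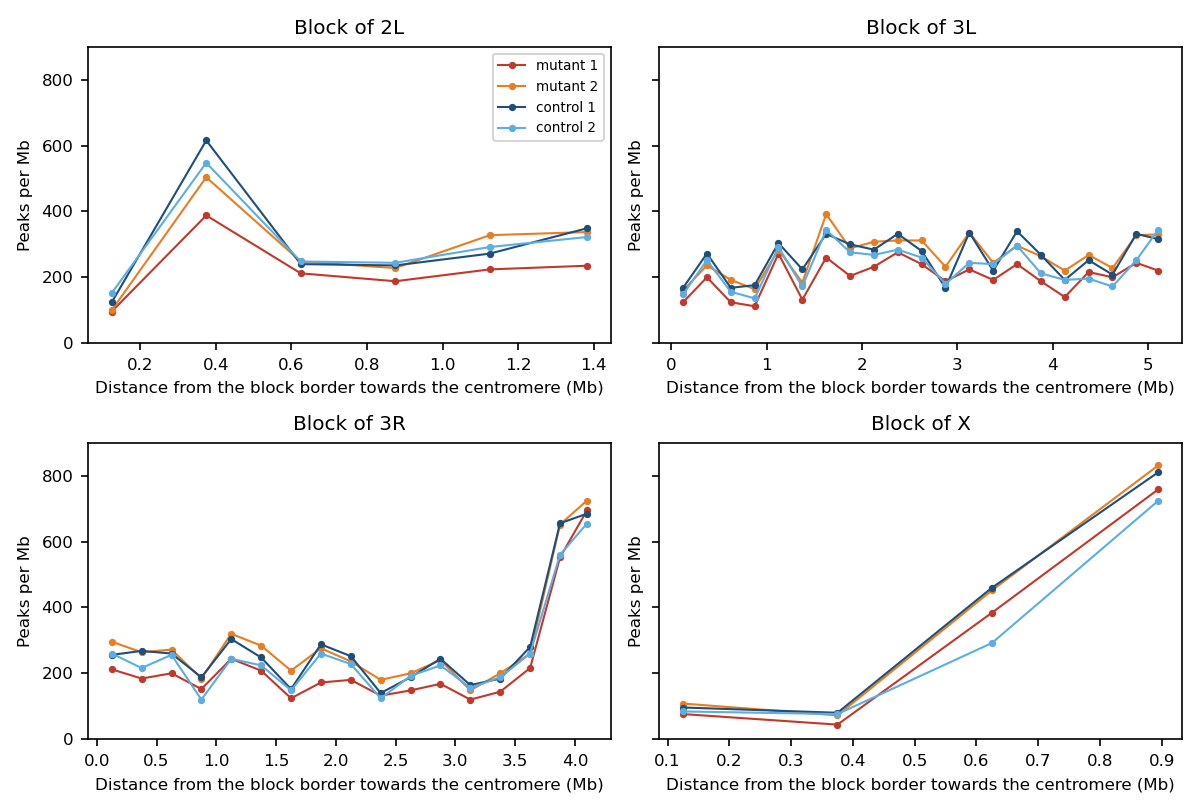
Peaks per Mb in 250 kb bins against distance from the block border towards the centromere in Mb, 1 panel per block and 1 line per library. The lines of the 4 libraries run close together, and density climbs at the end of the assembly on 3R and X (655 to 832 peaks per Mb in the last bins).

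The X block holds the ribosomal DNA, the repeated genes for ribosomal RNA. The span X:23200802-23291729 contains 16 annotated ribosomal RNA genes and pseudogenes and had 81 and 87 peaks in mutants, against 82 and 76 in controls. Of its 86 regions, 67 were called in all 4 libraries. The first 100 kb of the 3R assembly had 83 and 73 peaks in mutants and 70 and 76 in controls, and 47 of its 65 regions were called in all 4. Peaks of that 3R stretch had median ranks of 9.93% and 17.6% in mutants, against 25.8% and 22.2% in controls. The last 100 kb of X had 84 and 97 peaks in mutants and 90 and 80 in controls. The last 100 kb of 2L had 20 and 34 peaks in mutants and 32 and 32 in controls, and that of 3L 10 and 19 in mutants and 10 and 17 in controls. These ends of 2L and 3L were thus far sparser than those of 3R and X in all 4 libraries. Without the ribosomal DNA span, the blocks' share of the strongest 1% was 29.1% and 20.5% in mutants, against 10.3% and 11.4% in controls. Only that span was left out. The last 100 kb of X lies outside it, and held 17 and 17 of the strongest 1% in mutants, against 10 and 11 in controls. Whether ribosomal DNA lies elsewhere in the X block was not tested.

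The members just inside and just outside each border were as follows. At 2L the first summit inside was 12296 bp from the border and the last one outside 9399 bp from it. At 3L these distances were 59 and 96 bp. At 3R they were 2736 and 4340 bp, and at X 7197 and 4495 bp. Moving the borders by 500 kb either way left the direction of the peak differences as it was.

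Regions called in all 4 libraries were the largest class in the blocks. Of the 4462 block regions, 1681 (37.7%) had a peak in all 4 libraries, while 30.3% of all main-arm regions and 29.3% of those in the rest did. A further 1323 (29.7%) had a peak in 1 library. Mutant-only regions, called in both mutants and neither control, numbered 117 in the blocks, or 2.62%, beside 1.76% of all main-arm regions and 1.59% of the rest. Control-only regions numbered 164, or 3.68%, beside 5.93% of all main-arm regions and 6.37% of the rest. Pairs of libraries that cross the genotypes gave counts on both sides of these. Mutant 2 and control 1 alone shared 241 regions, mutant 2 and control 2 109, mutant 1 and control 2 65, and mutant 1 and control 1 51. The count of 241 (5.401%), for a pair of different genotypes, was above both genotype-specific counts, and the other 3 were below both. Over all main-arm regions mutant 2 and control 1 alone shared 2.89%, below the control-only share of 5.93%.

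**Figure D3:**
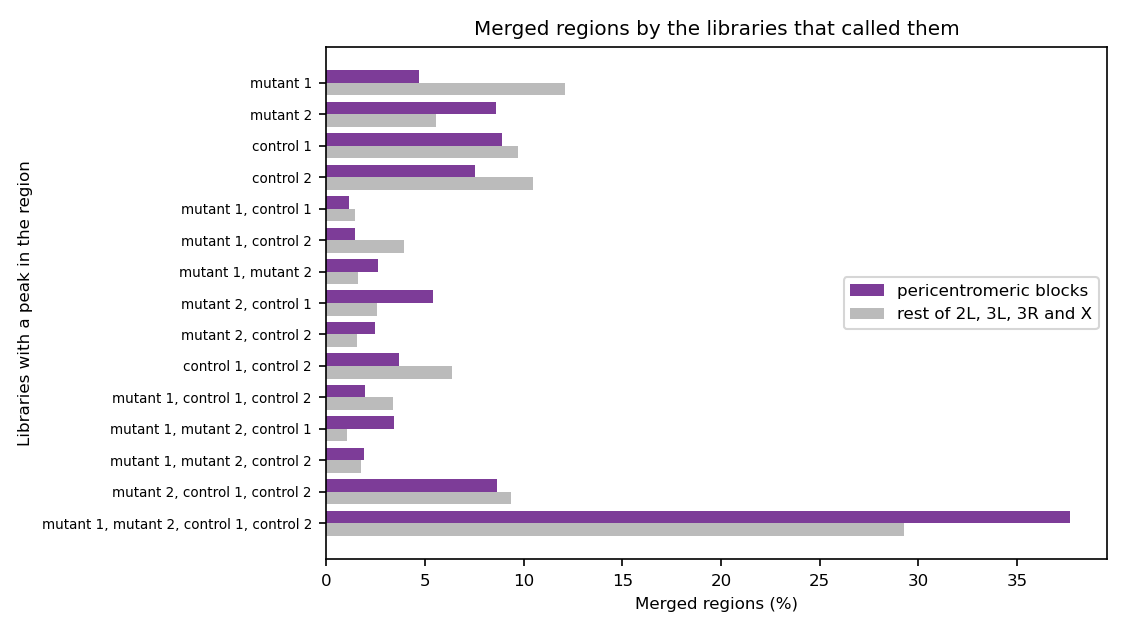
Percent of merged regions by the libraries that called them, for the blocks and for the rest of the arms. Regions of all 4 libraries are the largest class in both (37.7% and 29.3%), and among pairs of libraries the largest is mutant 2 with control 1 in the blocks (5.401%) and control-only in the rest (6.37%).

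Among the genotype-specific block regions, 58.4% were control-only (exact binomial 95% interval 52.4 to 64.2%, which covers counting error only). In the rest of the arms the share was 80.02%. The difference between blocks and rest was not tested, since regions are not replicates. The share differed with the lists used. With peaks of -log10 q of at least 5 it was 59.0%, and 88.6% in the rest. With each list shortened to its 25528 strongest main-arm peaks, the blocks held 153 mutant-only and 115 control-only regions, so that 42.9% were control-only, and the share in the rest was 66.4%. With the reads of each peak scaled to the lowest floor, and peaks that no longer passed left out, the blocks held 132 mutant-only and 140 control-only regions, or 51.5% control-only, and the share in the rest was 74.5%. Leaving out 1 library at a time moved the blocks' share between 33.0% (without mutant 1) and 74.0% (without control 2).

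The blocks differed in this split. The 2L block had 13 mutant-only and 39 control-only regions, 3L had 59 and 82, 3R had 37 and 35, and X had 8 and 8. Of 711 block regions called in 3 libraries, 385 lacked mutant 1, 88 lacked mutant 2, 85 lacked control 1 and 153 lacked control 2. Mutant 1 was missing in 54.1% of these, beside 59.0% over the main arms, and control 2 in 21.5%, beside 8.51%. On X, 34 of 66 such regions lacked control 2, while mutant 1 was the library most often missing in the other 3 blocks. The overlap of whole lists within the blocks, measured as bases shared by a pair of libraries over bases in either, was 0.570 between the mutants and 0.611 between the controls. It was 0.631 between mutant 2 and control 1, 0.578 between mutant 2 and control 2, 0.541 between mutant 1 and control 1, and 0.537 between mutant 1 and control 2. The highest overlap in the blocks was thus between libraries of different genotype, while in the rest of the arms it was between the controls, at 0.592, with 0.550 for mutant 2 and control 1.

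The 5 best-ranked regions of all 4 libraries, chosen by their mean rank over these, are described by their fold enrichment. 2L:23512792-23513703, at the end of the 2L assembly and 96639 bp from the nearest gene, had a fold enrichment of 62.4 and 69.1 in mutants, against 67.0 and 62.6 in controls. 3R:3169820-3170369 lies within Pzl, which encodes a relative of the mechanically gated channel Piezo, 93213 bp from its nearer end. Its fold enrichment was 82.0 and 86.1 in mutants, against 80.01 and 80.6 in controls. X:23253059-23253750 lies 8022 bp from the 28S ribosomal RNA pseudogene 28SrRNA-Psi:CR41609, between genes, and had a fold enrichment of 33.0 and 29.5 in mutants, against 31.2 and 29.4 in controls. Next in rank were X:23472374-23472586, 65629 bp from mir-10404-5, and 3R:35253-37193, 529883 bp from Myo81F. The X site had folds of 18.6 and 15.1 in mutants, against 16.001 and 16.3 in controls. The 3R site varied most, with 16.2 and 10.5 in mutants, against 10.8 and 14.1 in controls. All 5 sites are outside genes or deep inside 1 gene, and none is near a gene end.

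Mutant-only and control-only regions stood lower in the lists. The median of the mean rank was 58.6% for mutant-only, 70.1% for control-only and 38.5% for regions of all 4 libraries. The best-ranked mutant-only region was 3R:2583596-2583742, inside Pzl and 29434 bp from its nearer end, with fold enrichments of 12.6 and 13.7 in the mutants and no peak in the controls. The next were 3L:24463729-24463798, 62074 bp from nvd, and 3L:23058405-23058500, 18105 bp from nrm. The gene nvd encodes Neverland, an oxygenase that converts cholesterol in the first step of ecdysone synthesis, and nrm encodes neuromusculin, a cell adhesion protein of the immunoglobulin family. The first of these had folds of 4.70 and 4.55 and the second 6.40 and 6.71 in the mutants. The other 2 of the 5 best-ranked, 3L:24469169-24469289 and 3L:24464986-24465099, lie beside the nvd site, 64801 bp from CR12460 and 63331 bp from nvd. The best-ranked control-only regions were 3L:24684998-24685084, 39078 bp from scro, 3L:23146560-23146663, 993 bp from Vps11, and 3L:24137756-24137951 inside Snap25. Their folds in the controls were 7.34 and 6.74, 5.80 and 7.90, and 5.89 and 3.88. The gene scro encodes a homeodomain protein of the NK2 family, Vps11 a subunit of the vesicle tethering complexes of late endosomes, and Snap25 a SNARE protein of synaptic vesicle fusion. 2L:23239158-23239244, 9 bp from lncRNA:CR46253, and 3L:23571683-23572778 inside AGO3 completed the 5 control-only regions. Of the 117 mutant-only regions 0 were near a gene end, and of the 164 control-only regions 8 were, beside 3.32% of all block regions.

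Some genotype-specific regions lay in runs. Runs were counted as at least 4 regions of the same kind with gaps of at most 20 kb. There were 6 mutant-only runs with 29 of the 117 regions, and 4 control-only runs with 38 of the 164. The runs were chosen by their calls, so their peak counts are a description. No run count is given for the rest of the arms or for pairs of libraries that cross the genotypes. Regions are crowded in the blocks, and the part of this in the runs was not tested. The longest control-only run, 2L:22393000-22504102, lies 24204 bp from Marf1 and holds 20 control-only among 161 regions. It had 76 and 93 peaks in mutants, against 135 and 113 in controls, and it overlaps the bin of 2L described above. Among mutant-only runs, 3L:25568327-25573835 inside lovit had 12 and 17 peaks in mutants and 3 and 5 in controls. The gene lovit encodes a transporter needed for histamine release by photoreceptors. 3L:25896849-25900689 inside l(3)80Fg had 11 and 11 peaks in mutants and 5 and 2 in controls. X:23116792-23134624, 8461 bp from ATbp, had 11 and 13 peaks in mutants and 7 and 0 in controls, so that control 2 alone had none there. The mutant-only run 3L:27802180-27840716 at lncRNA:CR46482 had 22 and 28 peaks in mutants and 22 and 18 in controls. The control-only run 3L:26074503-26103742, 60391 bp from l(3)80Fg, had 11 and 18 in mutants and 24 and 16 in controls. In these 2 runs the genotypes met or overlapped, and in the others they did not.

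**Figure D4:**
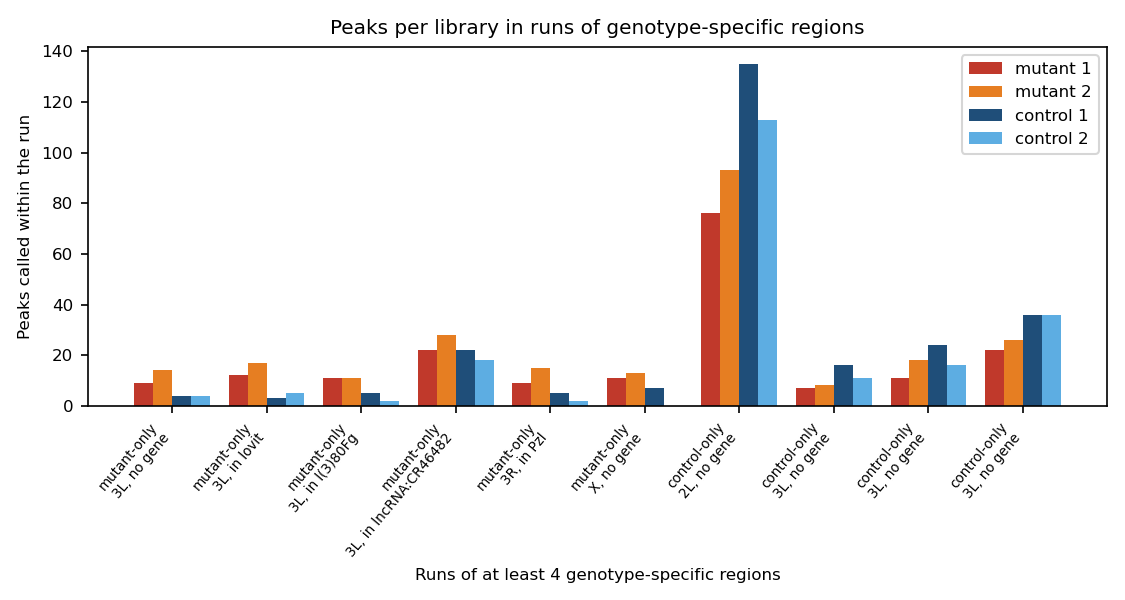
Peaks called by each library within the 6 mutant-only and 4 control-only runs, 1 group of bars per run. Mutant bars are taller in most mutant-only runs and control bars in most control-only runs, as their choice implies, with the largest numbers in the 2L run (76 and 93 in mutants, against 135 and 113 in controls).

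A few very long genes held most of the genic regions. Of the 4462 block regions, 1578 (35.4%) overlapped a gene, and 5 genes held 1073 of them (68.0%). Myo81F, an unconventional myosin gene of 1966 kb on 3R, held 547 regions. It had 291 and 407 peaks in mutants, against 400 and 376 in controls. Pzl, at 709 kb, held 240 regions, with 137 and 191 peaks in mutants and 170 and 143 in controls. The gene lovit, at 434 kb, held 168 regions, with 115 and 140 peaks in mutants and 134 and 121 in controls. In these 3 genes the groups overlapped. Snap25, at 3L:24074180-24299205, held 73 regions and had 46 and 49 peaks in mutants, against 64 and 55 in controls, without overlap (difference -12, exact permutation p = 0.333). The gene l(3)80Fg, at 216 kb, held 45 regions, with 27 and 38 peaks in mutants and 29 and 23 in controls. Of the 223 block genes, 121 held at least 1 region.

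The fewest block genes with a peak at an end were in mutant 1. A gene was counted as called when a peak lay within 500 bp of either end, because the gene table gives no strand. Of 223 block genes, 66 and 88 were called in mutants (29.6% and 39.5%), against 104 and 101 in controls (46.6% and 45.3%). Of all main-arm genes, 46.0% and 49.7% were called in mutants, against 55.3% and 54.8% in controls, so mutant 1 was also the lowest there. The role groups and the gene list below are to be read beside these shares. In all 4 libraries 53 were called (23.8%), beside 36.9% of the 17684 main-arm genes. None was mutant-only, beside 0.549% of main-arm genes, and 9 were control-only (4.04%), beside 2.84%. Among the 123 protein-coding genes, 23 were called in all 4 libraries (18.7%), while 39.7% of those in the rest were. Of 22 protein-coding block genes called in 3 libraries, 20 lacked mutant 1, beside 1183 of 1712 such genes over the main arms. Mutant 1 had the lowest read floor, and the part of depth in these counts was not tested.

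Genes of translation had calls in mutant 2 and the controls, and 0 in mutant 1. Of the 6, 0 and 4 were called in mutants, against 6 and 5 in controls, which is 0% and 66.7% in mutants and 100% and 83.3% in controls. The role groups were picked after values were seen. RpL15, a protein of the large ribosomal subunit (3L:27267255-27268445), had no peak at its ends in mutant 1 and one of rank 17.5% in mutant 2, against 11.9% and 15.3% in controls. RpL10 (3L:23093190-23095471) had none in mutant 1 and one of rank 13.0% in mutant 2, against 15.5% and 18.9% in controls. RpL5 (2L:22532279-22536884) had none in mutant 1 and one of rank 29.6% in mutant 2, against 29.3% and 26.8% in controls. In mutant 2 the rank was ahead of both controls for RpL10 and behind both for RpL15 and RpL5. RpL21 followed the same pattern of calls. The gene mRpS5, for a protein of the mitochondrial ribosome, was control-only, at ranks of 23.6% and 36.0%. The translation initiation factor gene eIF4B was called in control 1 alone.

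Mutant 1 also had the fewest calls among genes of mitochondrial function. Of 8, 1 and 5 were called in mutants, against 6 and 6 in controls (12.5% and 62.5% in mutants, 75% and 75% in controls). ND-MLRQ, a complex I subunit gene, had no call in mutant 1 and rank 38.8% in mutant 2, against 30.1% and 32.0% in controls. ND-AGGG, for another complex I subunit, was called in all 4, at ranks of 27.2% and 95.6% in mutants, against 43.6% and 47.9% in controls. Tim23 and Tim17b, for parts of the inner membrane import channel, and Coa7 lacked a call in mutant 1 alone. Neighbours can share a peak, and Coa7 and the Rab GTPase gene Rab21 had the same rank in every library. UQCR-11, a complex III subunit gene at 3L:25120709-25126171, was control-only, at ranks of 52.5% and 49.9%.

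**Figure D5:**
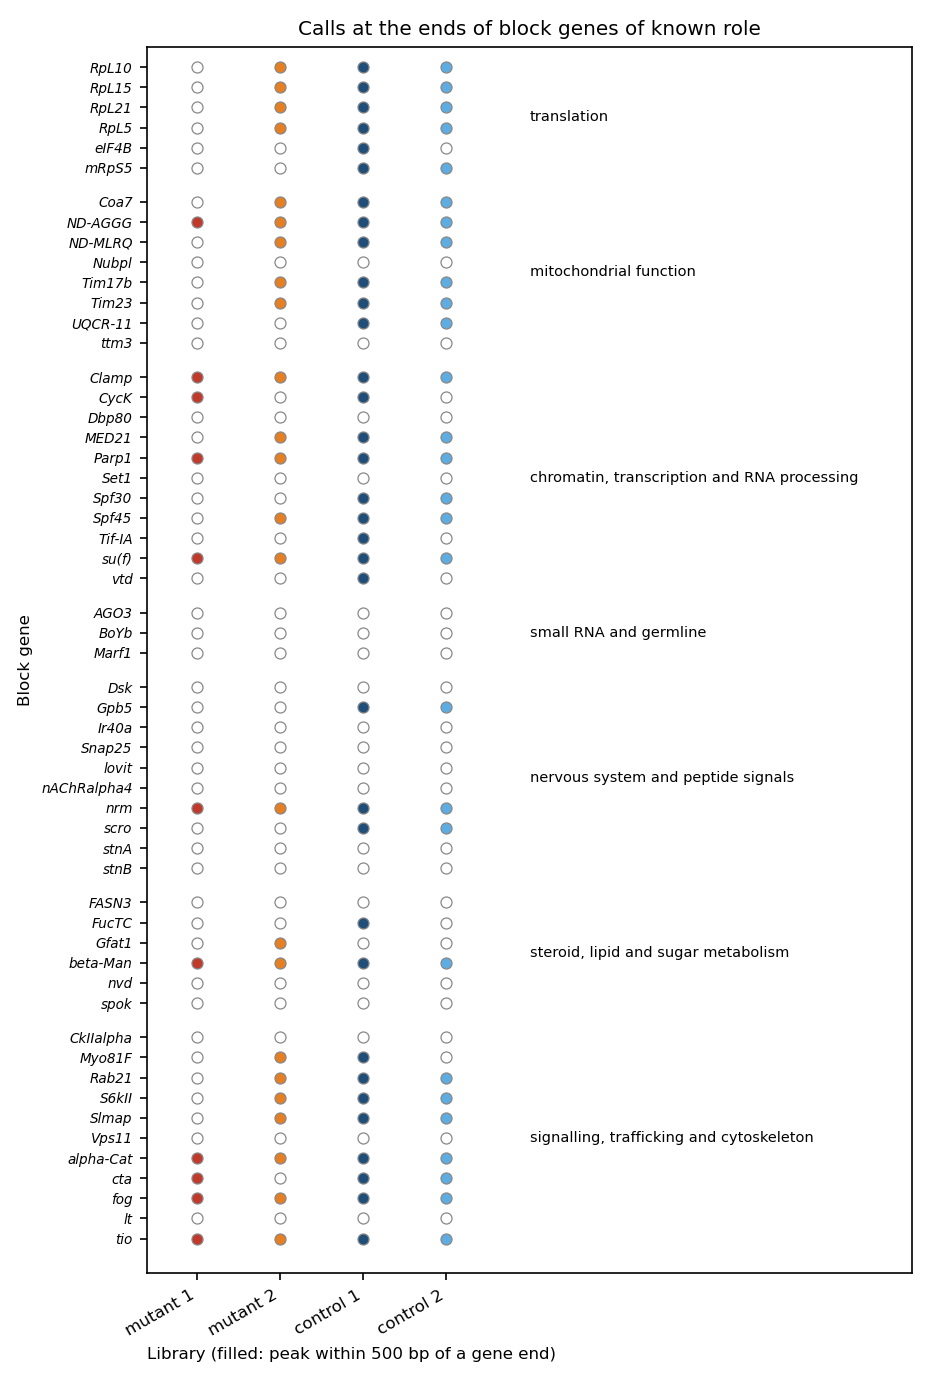
Calls at the ends of block genes of known role, 1 row per gene and 1 column per library; a filled mark is a peak within 500 bp of a gene end. In mutant 1, 0 of 6 translation rows and 1 of 8 mitochondrial rows are filled, in mutant 2 4 and 5, and in the controls 6 and 5 of the translation rows and 6 and 6 of the mitochondrial ones; the small RNA rows are empty throughout.

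Of 11 genes of chromatin, transcription and RNA processing, 4 and 5 were called in mutants, against 9 and 6 in controls (36.4% and 45.5% in mutants, 81.8% and 54.5% in controls). The transcription factor gene tio is not among these and was counted with the signalling genes below. Parp1, a poly(ADP-ribose) polymerase gene of 3R:3461351-3587054, was called in all 4, at ranks of 16.3% and 27.3% in mutants, against 19.5% and 23.3% in controls. Its body held 28 and 28 peaks in mutants and 29 and 28 in controls, close to equal in all 4 libraries. Clamp, a zinc finger gene of dosage compensation, was called at ranks of 78.9% and 23.5% in mutants, against 23.2% and 21.4% in controls. The gene su(f), for a factor of mRNA 3' end formation, was called at ranks of 25.6% and 55.0% in mutants, against 20.2% and 23.8% in controls. MED21, a Mediator subunit gene, lacked a call in mutant 1 alone, and the cohesin gene vtd was called in control 1 alone. Spf30, a splicing factor gene, was control-only. Set1, a histone H3 lysine 4 methyltransferase gene, and the RNA helicase gene Dbp80 had no call at their ends in any library.

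Genes of signalling, trafficking and the cytoskeleton were called in 4 and 7 of 11 cases in mutants, against 8 and 7 in controls (36.4% and 63.6% in mutants, 72.7% and 63.6% in controls). The gene fog, for the secreted ligand that drives cell shape change in gastrulation, ranked at 64.6% and 12.2% in mutants, against 9.05% and 6.79% in controls. The gene cta, for the G protein alpha subunit of the same pathway, was called in mutant 1 and both controls. The catenin gene alpha-Cat ranked at 28.9% and 42.7% in mutants, against 12.5% and 14.2% in controls. The ranks were weaker in both mutants than in both controls for fog and alpha-Cat. The zinc finger gene tio ranked ahead in both mutants, at 10.3% and 10.8%, against 14.9% and 11.4% in controls. The counts of this group include tio, which was called in all 4 libraries, although it encodes a transcription factor. These differences were not tested, since the genes were picked from their group. The vesicle trafficking gene lt (light) had no call at its ends in any library and 1 and 1 peaks in its body in mutants, against 2 and 2 in controls.

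Genes of the nervous system and peptide signals were mostly without a call, at 1 and 1 of 10 in mutants, against 3 and 3 in controls (10% and 10% in mutants, 30% and 30% in controls). The gene nrm was called in all 4, at ranks of 18.2% and 8.71% in mutants, against 4.87% and 4.88% in controls. The genes scro and Gpb5, a glycoprotein hormone subunit gene, were control-only, with scro at ranks of 71.5% and 78.4% and Gpb5 at 85.0% and 74.2%. The peaks of control 1 and control 2 inside Gpb5 lay in different regions, so no region there was control-only. Neither end of Snap25, lovit, stnA, stnB, Ir40a or nAChRalpha4 was called in any library. The genes stnA and stnB have the same span, and so the same values, but are counted separately. Of 6 genes of steroid, lipid and sugar metabolism, 1 and 2 were called in mutants, against 2 and 1 in controls, and the ecdysone synthesis genes nvd and spok were called in none. The 3 small RNA and germline genes, AGO3, BoYb and Marf1, had no call at their ends. The body of AGO3, the piRNA-binding Argonaute gene, held 20 and 28 peaks in mutants, against 28 and 26 in controls.

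The 9 control-only genes were CG6675, lncRNA:CR44809, CG17490, Gpb5, Spf30, mRpS5, scro, CG40472 and UQCR-11. Of these, 4 lie on 2L and 5 on 3L. Within the list of 25 classical heterochromatic genes found in the blocks, 4 were called in all 4 libraries (l(3)80Fg, Parp1, fog and su(f)), 11 in none, and scro in both controls alone. Those with no call were lt, AGO3, Snap25, nvd, Set1, Dbp80, Pzl, spok, Alg-2, and stnA and stnB, which share their span. The remaining 9 had calls in 1 to 3 libraries: Gfat1, for the enzyme that opens hexosamine synthesis, in mutant 2 alone, Myo81F in mutant 2 and control 1, and RpL5, RpL15, cta, MED21, vtd, eIF4B and l(3)80Fj in other combinations. By library, 5 and 9 of the 25 were called in mutants, against 13 and 9 in controls. These are 20% and 36% in mutants and 52% and 36% in controls, beside 29.6% and 39.5% of all block genes in mutants and 46.6% and 45.3% in controls.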

How the data were processed

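Per the labels, ATAC-seq libraries were made with a commercial kit from nuclei of thoracic muscle enriched for flight muscle. Per the submitters' processing notes the build is BDGP6 and the tools named, with no role given, are bcl2fastq 2.20, MultiQC 1.5, cutadapt 2.3, Bowtie2 2.4.1, Picard and MACS2 2.2.7.1. Read shifting, duplicate removal and the treatment of multiply mapped reads are not given in the sources used here. The authors deposited 1 peak list per library, so peaks were called per library. Fold enrichment (a ratio), −log10 p and −log10 q stand as the authors deposited them and were used to rank and filter peaks within a list. Where values of several lists are set side by side, they describe the lists and are not on 1 scale, since depth moves them. The deposited score repeats the −log10 q and was not used. The lowest −log10 q is 2.01.

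Peaks were assigned to blocks by summit and merged at 1 bp of overlap. Reads at a peak and the local read level were solved from fold enrichment and −log10 p for peaks with −log10 p up to 250. Group means were compared by two-sided exact permutation over the 6 labelings, and blocks with the rest by exact sign flips over 4 libraries. Genes came from a RefSeq table of assembly Release 6 plus ISO1 MT, which has no strand, so either gene end stands in for the start. Regions named are the 5 best-ranked of each kind. Genes named are those overlapping or nearest to these, the 5 holding most regions, control-only genes, and a heterochromatic list of 35 symbols, 25 of which lie in the blocks. Members and lists were chosen with earlier results of these data known. The role groups, strongest 1%, runs and chromosome-end stretches were chosen after values were seen. Alternatives were a stricter q (−log10 q of at least 5), lists of equal length and lists scaled to the lowest read floor, the share among all main arms, reciprocal overlap of 50%, summits within 150 bp, borders moved by 500 kb, gene ends within 1000 bp, each library left out, and the replicate number as a block. A check for pairing of libraries with equal numbers gave a correlation of deviations of -0.0960 over 44429 regions. It cannot exclude that such libraries were prepared together, and the labels give no batch. The solving of read levels and the merging of peaks were tested on simulated data, and the other steps were not. Python 3.11.15, numpy 2.4.6, pandas 2.3.3, scipy 1.17.1 and matplotlib 3.10.9 were used. No sequence was read.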

Additional observations from a re-analysis of the deposited data

How the results depend on the processing

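Of 83 alternative values, 4 reversed, 13 counts or shares moved past the limit set for them, and 66 kept their direction and side of the threshold, with sizes that could differ. The difference in block peaks of -163 became 125.5 with equal-length lists, and ranged from -543 to 217 when 1 library was left out (217 without mutant 1, 1 without control 1). The difference in share of 1.30 points ranged from -0.446 (without mutant 2) to 3.05. The control-only percent of 58.4 became 42.9 with lists of equal length and 51.5 with lists scaled to the lowest read floor, and ranged from 33.0 to 74.0 when 1 library was left out. In the same way control-only regions ranged from 253 to 590, mutant-only regions from 207 to 513, the width difference from -21 to -3 bp, the rank difference from -13.4 to -1.73 points, genes called in all libraries from 53 to 78, and the difference in the blocks' share of the strongest 1% from 11.5 to 22.1 points; ranked by fold enrichment that difference was 2.66 points. Fewer libraries relax the definition of a genotype-specific region. The other causes were not tested. In a test with replicate number as block, differences stayed at -163 peaks, 1.30 points, -12 bp, -7.57 points and 16.8 points; no exact sign-flip p went below 0.5, the smallest that 2 pairs allow. Whether equal numbers pair the libraries is not known. The lower read floor of the mutants limits what could be called there, and a missing call does not show closed chromatin.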

Other observations

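Chromosome Y, which is heterochromatic and was not among the 4 arms, had 638 and 871 peaks in mutants, against 938 and 846 in controls (two-sided exact permutation p = 0.667). Mutant 1 was again the lowest library. The sex of the animals is not given in the sources used here. The mitochondrial genome had 20 and 24 peaks in mutants, against 21 and 18 in controls.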
